A study of Mus musculus with 75 samples.

Results

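Myc and 9 genes that surround it in cell growth were followed through an experiment on translation in mouse CD4 T cells. The 10 genes were fixed by their identifiers as Myc (ENSMUSG00000022346), its partner Max (ENSMUSG00000059436), the polyamine enzyme gene Odc1 (ENSMUSG00000011179), and 7 nucleolar genes. The nucleolar genes were Ncl (ENSMUSG00000026234), Npm1 (ENSMUSG00000057113), Fbl (ENSMUSG00000046865), Nop56 (ENSMUSG00000027405), Nop58 (ENSMUSG00000026020), Nolc1 (ENSMUSG00000015176) and Bop1 (ENSMUSG00000022557). They are 10 of the 53465 gene identifiers in the count tables, and all 10 had enough counts to be tested. The rule that chose them used no measured value, but the choice was made with earlier results of these data known.

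The cells were CD4+CD25- effector T cells (Teff) from spleen and lymph nodes of 9 mice. In the RiboTag assay, 5 mice were used. One parent strain was B6N.129-Rpl22tm1.1Psam/J; it was crossed to a Cre strain, B6.Cg-Tg(Cd4-cre)1Cwi/BfluJ, so that the offspring carried a hemagglutinin-tagged ribosomal protein Rpl22 in cells that had expressed the Cd4-driven Cre. Ribosome-bound RNA, pulled down by the tag (IP), was sequenced with total RNA (Input) from cells given anti-CD3/CD28 beads with regulatory T cells (Tregs), beads alone, or an IL7 rest, with 5 mice in each of the 6 groups. In the SPEED assay, cells of 4 mice of strain B6.SJL-PtprcaPepcb/BoyJ were separated on sucrose into polysomal (Pol) and subpolysomal (SubPol) RNA beside Input. These cells received beads with HHT for 10 min before harvest, beads with Tregs, beads alone, or no treatment. HHT is the usual abbreviation of homoharringtonine, a drug that blocks the start of elongation on new ribosomes; the labels give only the letters. Each SPEED group had 4 mice, except that HHT had 3 in Pol, 3 in SubPol and 2 in Input. Cells cultured with beads alone are called stimulated below. Tregs were YFP+ cells of Foxp3-YFP-Cre mice, and the sources used here do not say whether they were removed before lysis. How much of the RNA of a co-culture came from Tregs was not tested.

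The RiboTag libraries held 1658481 to 2824875 counts each and the SPEED libraries 1566501 to 4621104. Levels below are CPM (each gene's counts scaled to a fixed library total) after TMM scaling, a correction that sets libraries against each other by the bulk of their genes; they are shares of a library and are not compared between genes. Differences were tested with edgeR's quasi-likelihood test, and all adjusted p-values are Benjamini-Hochberg values over every gene tested, with 0.05 as the threshold. In bulk RNA, fewer cells of a type and less of an RNA per cell cannot be told apart.

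Myc is a transcription factor that binds DNA as a pair with Max, at E-box sites that read CACGTG, and activates genes for growth, polyamine synthesis and ribosome production. T cells switch Myc on when their antigen receptor is engaged. Ribosomes are assembled in the nucleolus, where ribosomal RNA is transcribed, chemically modified by small nucleolar ribonucleoproteins (snoRNPs), cut and packed with proteins.

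All 10 genes are protein coding, and their positions on GRCm38.p6 come from the RefSeq annotation. Myc spans chr15:61985341-61990361 and Bop1 chr15:76452988-76477249. Max spans chr12:76937269-76962323 and Odc1 chr12:17544808-17551502. Ncl spans chr1:86344719-86359455 and Nop58 chr1:59684961-59711510. Npm1 spans chr11:33152498-33164142, Fbl chr7:28168893-28179269, Nop56 chr2:130274367-130279313 and Nolc1 chr19:46075847-46085543. A pseudogene named Fbl-ps2 is annotated at chr17:6121093-6122224. Its likeness to Fbl was not checked, so whether counts of Fbl are split with it is uncertain. Only pseudogenes named after one of the 10 genes in this form were looked for. Copies of any of them under other names were not searched.

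RefSeq promoter windows, which run from 250 bases before to 50 after the start assigned to each window, were at hand for 6 of the 10 genes. For Max, Odc1, Nop56 and Nop58 that start lies inside the gene span given above and not at its end. The E-box CACGTG, searched on both strands (it reads the same on each), was in the window of Max and not in those of Odc1, Ncl, Nop56, Nop58 and Nolc1. Of all 32851 promoter windows in the table, 2349 (7.15%) held it. Windows of 3 genes are shown. That of Max (chr12:76962199-76962498, minus strand) has its E-box in capitals. The E-box starts 3 bases before the start assigned to this window, which places it inside the gene span of Max. Those of Nop56 (chr2:130274162-130274461, plus strand) and Nolc1 (chr19:46075597-46075896, plus strand) are nucleolar genes that rose on stimulation in every fraction except the subpolysomal one for Nolc1. Letters run 5′ to 3′ on the strand of the gene.
Max: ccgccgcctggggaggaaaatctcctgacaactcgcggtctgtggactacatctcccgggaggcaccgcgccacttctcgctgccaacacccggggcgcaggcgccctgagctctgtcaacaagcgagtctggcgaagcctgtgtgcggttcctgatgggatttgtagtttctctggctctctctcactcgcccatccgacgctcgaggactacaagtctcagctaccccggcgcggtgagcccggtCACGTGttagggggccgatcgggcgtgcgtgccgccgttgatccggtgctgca
Nop56: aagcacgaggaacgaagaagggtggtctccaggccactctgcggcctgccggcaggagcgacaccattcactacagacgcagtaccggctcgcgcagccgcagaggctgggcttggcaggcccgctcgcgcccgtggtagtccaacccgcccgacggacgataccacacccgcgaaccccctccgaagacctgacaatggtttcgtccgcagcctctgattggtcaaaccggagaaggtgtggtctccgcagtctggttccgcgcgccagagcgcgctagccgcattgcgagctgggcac
Nolc1: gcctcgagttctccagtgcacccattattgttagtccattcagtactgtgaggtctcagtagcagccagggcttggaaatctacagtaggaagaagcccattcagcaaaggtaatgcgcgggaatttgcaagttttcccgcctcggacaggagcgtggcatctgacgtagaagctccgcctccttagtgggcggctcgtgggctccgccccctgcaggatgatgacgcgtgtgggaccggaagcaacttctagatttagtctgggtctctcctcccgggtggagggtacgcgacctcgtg

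The first question was how the 10 genes answered the beads. In RiboTag Input, 9 of 10 rose over the IL7 rest (adjusted p at most 0.014 for Myc, edgeR), where 63.3% of all 10751 genes tested passed in one direction or the other and 32.0% rose. The median log2 fold change of the 10 genes was 0.84, against -0.01 over all genes tested. In RiboTag IP, 9 of 10 again rose, where 64.7% of all genes were called and 33.6% rose, with a median of 0.79. In SPEED Input, 9 of 10 rose over untreated cells where 54.4% of all genes were called and 27.9% rose. In SPEED Pol all 10 rose, where 55.8% of all genes were called and 28.5% rose. In SPEED SubPol, 5 of 10 rose (Myc, Max, Nop56, Nop58 and Bop1), where 52.0% of all genes were called and 27.5% rose, and Nop56 lost its call there without mouse 2 (0.28, adjusted p = 0.13). Most genes changed in each of these comparisons, and neither the counts nor the medians carry a test of the 10 genes against the rest.

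Among the 7 nucleolar genes, the largest rise in RiboTag Input was that of Nolc1, a chaperone of snoRNPs. Its level was 263, 257, 369, 394 and 349 CPM in stimulated RiboTag Input of mice 1 to 5, against 185, 157, 125, 135 and 126 CPM in IL7-rested Input. The groups did not overlap, with a log2 fold change of 1.17 ± 0.14 (SE, n = 5 each; adjusted p = 6.5e-09, edgeR). In SPEED Input it reached 431, 404, 419 and 365 CPM in stimulated cells, against 277, 245, 244 and 241 CPM in untreated cells. That was a log2 fold change of 0.68 ± 0.11 (adjusted p = 2.4e-06), again without overlap.

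Nop58 and Nop56 are core proteins of the box C/D snoRNPs, which guide methylation of ribosomal RNA. Nop58 had 317, 292, 346, 350.5 and 319 CPM in stimulated RiboTag Input, against 210.2, 152, 173, 138 and 138 CPM at rest. This was a 2.00-fold rise (adjusted p = 4.3e-09). Nop56 averaged 337 ± 51.6 CPM in stimulated and 203 ± 24.0 CPM in IL7-rested Input (SD, n = 5 each), a log2 fold change of 0.73 (adjusted p = 5.3e-08). Every stimulated library of both genes lay above every rested one. In SPEED Input, Nop58 averaged 349 ± 23.1 CPM in stimulated and 218 ± 20.3 CPM in untreated cells, and Nop56 averaged 296 ± 22.9 and 197 ± 8.91 CPM in the same order (SD, n = 4 each). Their log2 fold changes there were 0.68 and 0.58 (adjusted p = 1.3e-07 and 0.00014). Fbl, the methyltransferase of these snoRNPs, was thinly counted, at 19 to 139 counts a library. It averaged 20.9 ± 1.40 CPM in stimulated and 10.7 ± 1.95 CPM in rested RiboTag Input (adjusted p = 0.00014). In SPEED Input its log2 fold change was 0.70 (adjusted p = 0.0047), a call that was lost without mouse 3 (adjusted p = 0.085) and with no filter on low counts (0.056).

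Bop1 is a subunit of a complex needed to mature the large ribosomal subunit. Its level averaged 279 ± 43.5 CPM in stimulated and 142 ± 33.9 CPM in rested RiboTag Input (SD, n = 5 each; log2 fold change 0.97, adjusted p = 1.1e-07), and 314 ± 29.4 CPM in stimulated and 191 ± 19.9 CPM in untreated SPEED Input (n = 4 each; 0.72, adjusted p = 1.2e-06). Ncl (nucleolin, a protein that binds precursor ribosomal RNA) averaged 1004 ± 69.2 CPM in stimulated and 624 ± 37.2 CPM in rested RiboTag Input (0.69, adjusted p = 9.2e-09). Npm1 (nucleophosmin, a chaperone of ribosome assembly) averaged 305 ± 48.9 and 215 ± 26.4 CPM in the same groups (0.50, adjusted p = 0.00036). In both genes each of the 5 stimulated libraries lay above all 5 rested ones. In SPEED Input, Ncl and Npm1 had log2 fold changes of 0.76 and 0.72 (adjusted p = 2.0e-06 and 0.00091).

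**Figure D1:**
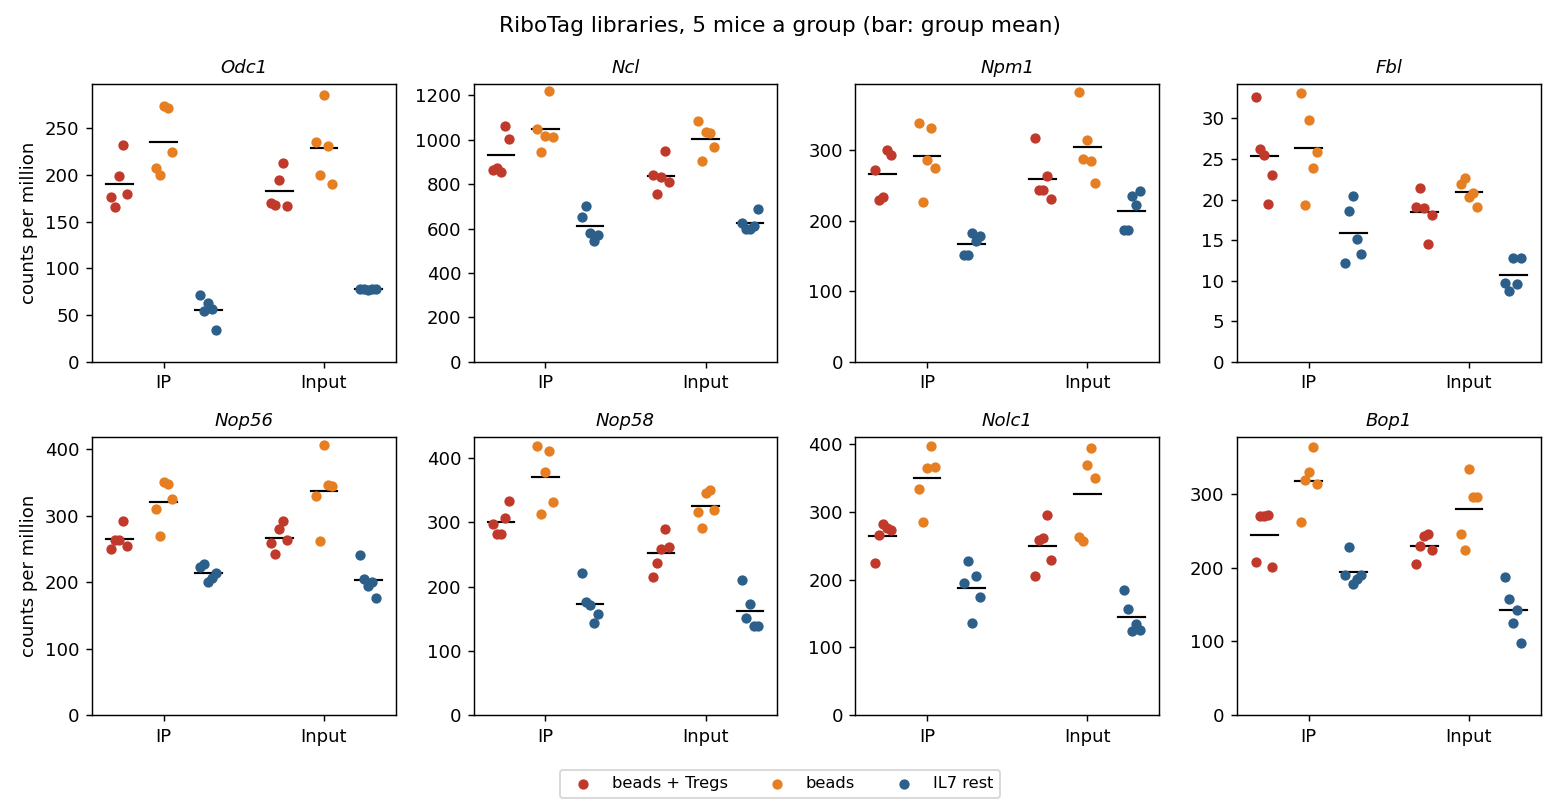
Level of Odc1 and the 7 nucleolar genes in each RiboTag library, in CPM on the vertical axis, with IP and Input side by side and 5 mice per group as points; the bar is the group mean. In Input, the stimulated libraries of all 8 genes lie above the rested ones, and the co-cultures with Tregs lie between or overlap the stimulated ones. On stimulation in Input 63.3% of all 10751 genes tested were called, and how many of all genes separated in this way was not counted.

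Myc itself behaved differently in the RiboTag and SPEED experiments. In SPEED Input it had 340.4, 338, 318 and 293 CPM in stimulated cells of mice 1 to 4, against 95.2, 146, 91.3 and 88.3 CPM in untreated cells. That was a 3.06-fold rise (log2 1.61 ± 0.15 SE, adjusted p = 5.6e-12, edgeR), with mouse 2 the highest of the untreated group. In RiboTag Input it had 269, 266, 329.5, 343 and 318 CPM in stimulated cells, against 305, 274, 238, 228 and 203 CPM after the IL7 rest. The groups overlapped, and the stimulated library was the higher one in 3 of 5 mice. The log2 fold change was 0.29 ± 0.10 (adjusted p = 0.014), and the call was lost without mouse 3, mouse 4 or mouse 5 (log2 0.22 to 0.25, adjusted p = 0.098 to 0.12). With mice 3 to 5 alone, which were fitted apart because rested libraries of mice 1 and 2 stood apart in earlier results of these data, the Myc value was 0.59 (adjusted p = 1.3e-05).

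Ribosome-bound Myc RNA was measured as IP in one assay and as Pol in the other, and its change was not tested between them. In RiboTag IP, Myc had 297, 319, 328, 359 and 312 CPM in stimulated cells, against 294, 345, 289, 269 and 255 CPM at rest, and the groups overlapped. The log2 fold change of 0.15 ± 0.10 did not pass (adjusted p = 0.19; 95% interval -0.06 to 0.36), though Myc passed with mice 3 to 5 alone (0.29, adjusted p = 0.0083). In SPEED Pol it had 381, 379, 304 and 335 CPM in stimulated cells, against 76.1, 123, 91.3 and 76.4 CPM in untreated cells (3.81-fold, adjusted p = 6.9e-14). In SPEED SubPol the rise was 3.72-fold (adjusted p = 2.5e-13). Stimulated Input of both assays held like levels of Myc, at 305 ± 35.4 CPM in RiboTag (n = 5) and 322 ± 22.05 CPM in SPEED (n = 4), while the unstimulated controls stood at 249.6 ± 40.3 CPM after the IL7 rest and 105 ± 27.3 CPM in untreated cells. These levels were scaled within each assay and are set side by side without a test.

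**Figure D2:**
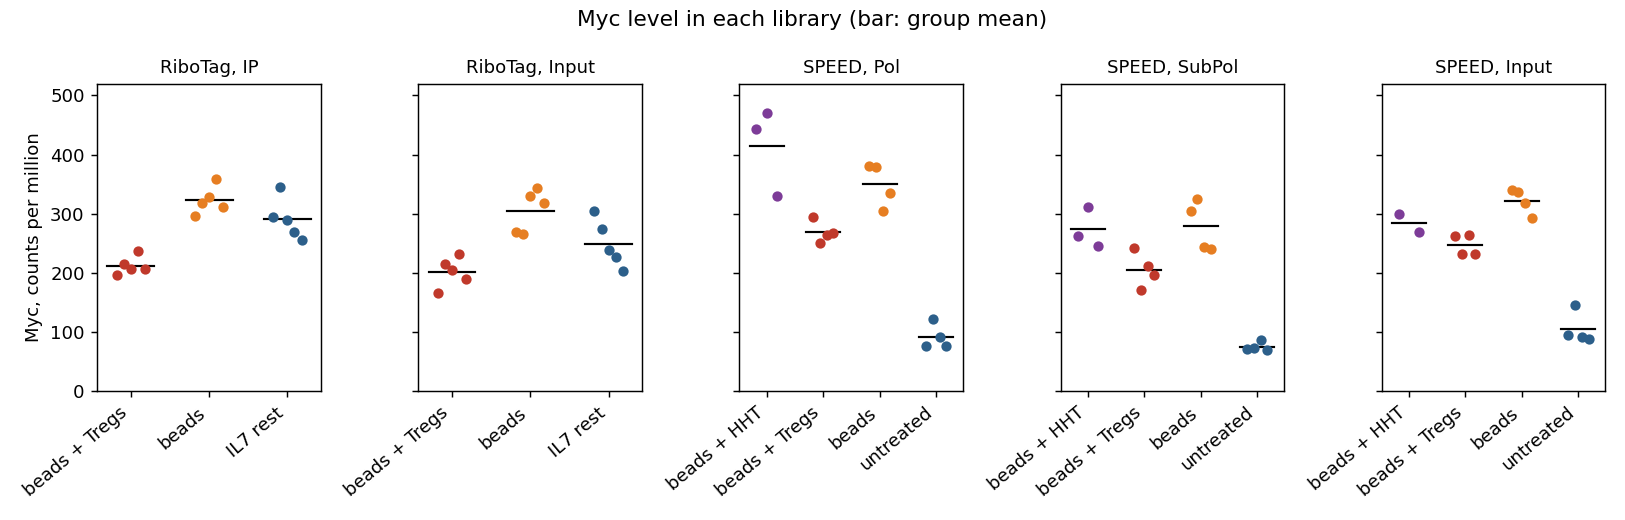
Myc level in every library, in CPM, by assay and fraction (panels) and by culture (horizontal axis); each point is a mouse and each bar the group mean. Untreated SPEED cells lie below all other groups, whereas IL7-rested RiboTag cells overlap the stimulated ones. Co-cultures with Tregs lie below the stimulated cells in RiboTag and in SPEED Input and Pol, and overlap them in SPEED SubPol. In the fit of all groups the fall of Myc with Tregs did not pass in any SPEED fraction.

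The change of Input on stimulation was set against itself between assays in one fit of 27 Input libraries, which left out the HHT ones. Myc rose less in RiboTag than in SPEED, with a difference of log2 changes (RiboTag minus SPEED) of -1.32 ± 0.19 (SE, adjusted p = 8.4e-06, edgeR). Odc1, the rate-limiting enzyme of polyamine synthesis, went the other way with 1.35 ± 0.16 (adjusted p = 5.3e-07). These were the only 2 of the 10 genes that passed, where 17.8% of 11232 genes did (9.76% higher and 8.08% lower), and both passed in all 13 alternative fits. Nolc1 (0.49, adjusted p = 0.055) passed by DESeq2 (0.031), with DESeq2's size factors (0.046) and without RiboTag mouse 1 or 2 (0.0034 and 0.023), and Nop58 without RiboTag mouse 1 (0.46, adjusted p = 0.014). The other 8 ranged from -0.21 for Npm1 to 0.49 for Nolc1, and the 95% interval of Ncl, -0.29 to 0.16, was the narrowest around 0. The unstimulated controls of the assays were unlike (IL7 rest and no treatment), as were the mouse strains, so control, strain and assay cannot be told apart in these 2 differences.

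Odc1 had 236, 200.1, 285, 231 and 191 CPM in stimulated RiboTag Input, against 77.5, 78.3, 76.6, 78.3 and 77.6 CPM at rest. The rise was 2.94-fold with no overlap (log2 1.55 ± 0.14 SE, adjusted p = 2.1e-11). In IP it was 4.20-fold, with 235 ± 35.3 CPM in stimulated and 55.8 ± 14.1 CPM in rested cells (SD, n = 5 each; adjusted p = 3.6e-14). In SPEED Input, Odc1 had 192, 188, 231 and 183 CPM in stimulated cells, against 183, 133, 195 and 176 CPM in untreated cells. Here the groups overlapped, and the log2 fold change of 0.21 did not pass (adjusted p = 0.20; 95% interval -0.07 to 0.49). In SPEED Pol it was 0.45 (adjusted p = 0.0063), and this call was lost without mouse 2 (0.27, adjusted p = 0.13).

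Max differed between total and ribosome-bound RNA at rest. In RiboTag IP it had 178, 103, 146, 146 and 97.6 CPM in stimulated cells, against 51.0, 43.9, 54.6, 48.3 and 65.6 CPM at rest, without overlap (2.55-fold, adjusted p = 1.2e-07). In Input the groups overlapped, at 122 ± 31.0 CPM in stimulated and 95.6 ± 14.2 CPM in rested cells, and the log2 fold change of 0.35 did not pass (adjusted p = 0.088). It passed without mouse 5 (0.56, adjusted p = 0.0040), and with mice 3 to 5 alone it was 0.05 (adjusted p = 0.85). In SPEED, the log2 fold changes for stimulated over untreated cells were 0.97 in Pol (adjusted p = 1.9e-05) and 0.40 in Input (adjusted p = 0.049). The Input call of Max was lost without mouse 1, 3 or 4 (adjusted p = 0.059 to 0.14), with no filter on low counts (0.11) and with only these groups fitted (0.053). Max rose in SPEED SubPol too (0.42 to 0.67 over 10 alternative fits, all past the test). The change of its Pol-over-SubPol ratio on stimulation passed in none of 11 alternative fits (0.36 to 0.57).

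**Figure D3:**
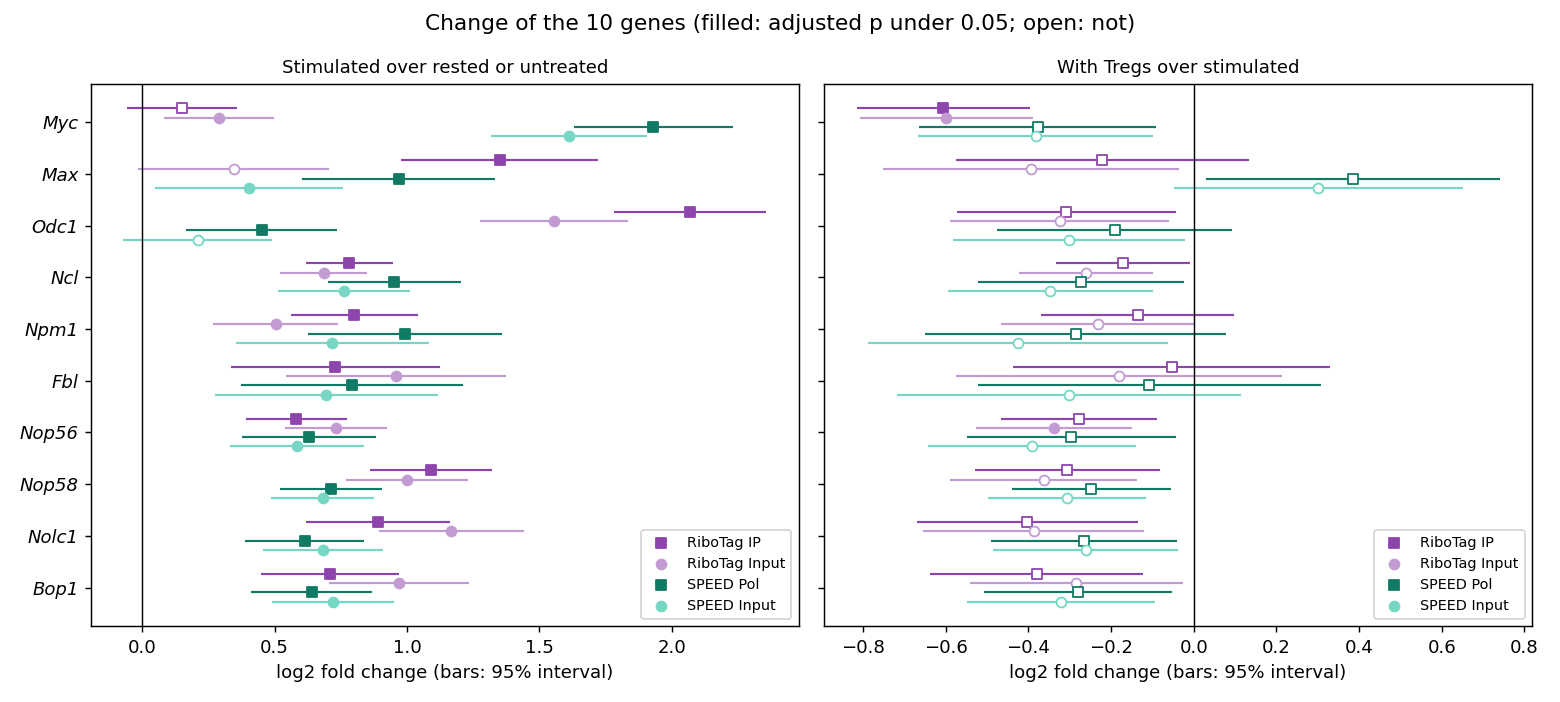
Log2 fold change of each of the 10 genes (rows) on stimulation (left) and with Tregs over stimulated cells (right), in RiboTag IP and Input and in SPEED Pol and Input; bars are 95% intervals, filled symbols have an adjusted p under 0.05 and open ones do not. On stimulation all symbols lie right of 0, with Myc further right in SPEED and Odc1 further right in RiboTag; with Tregs nearly all symbols lie left of 0, and of these only Myc in RiboTag IP and Input and Nop56 in RiboTag Input are filled.

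The study's title names Tregs as enforcing translation control, and the second question was how the 10 genes stood in co-cultures. Myc fell. In RiboTag Input it had 167, 215, 205, 232.1 and 189 CPM with Tregs, against 269, 266, 329.5, 343 and 318 CPM in stimulated cells. It was lower in 5 of 5 mice with no overlap (log2 -0.60 ± 0.10 SE, adjusted p = 0.00044, edgeR; 4.53% of all genes called). In IP it had 196, 214, 207, 237 and 207 CPM with Tregs, against 297, 319, 328, 359 and 312 CPM in stimulated cells, and again no library overlapped (-0.61 ± 0.10, adjusted p = 0.00042; 5.69% of all genes called, 2.24% lower). With Tregs, Myc stood below the IL7-rested mean as well, at 202 ± 25.0 CPM in Input against 249.6 ± 40.3 CPM at rest, a pair that overlaps and was not tested. The fall of Myc passed in all 11 alternative fits of each fraction (log2 -0.67 to -0.56 in Input and -0.62 to -0.59 in IP).

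In RiboTag Input of co-cultures all 10 had a negative log2 fold change over stimulated cells (median -0.33), where 49.4% of all genes were negative. Besides Myc, Nop56 passed, so that 2 of 10 fell where 1.77% of all genes did (-0.34 ± 0.09 SE, adjusted p = 0.028). It had 258, 242, 280.1, 291 and 263 CPM with Tregs, against 329, 262, 406, 346 and 344 CPM in stimulated cells; it was lower in each mouse, but the groups overlapped. The call of Nop56 was lost without mouse 1, 3, 4 or 5 (adjusted p = 0.081 to 0.22) and with no filter on low counts (0.080). With mouse as a block, 4 genes passed in Input (7.84% of all genes called): Myc, Nop56, Ncl (-0.26, adjusted p = 0.032) and Nop58 (-0.36, adjusted p = 0.030). In IP only Myc passed, and with mouse as a block 4 did (10.0% of all genes called): Myc, Nop56 (-0.27, adjusted p = 0.044), Nolc1 (-0.40, adjusted p = 0.044) and Bop1 (-0.38, adjusted p = 0.043). Nop58 illustrates a near miss, at 216, 237, 259, 289.8 and 262 CPM with Tregs in Input against 317, 292, 346, 350.5 and 319 CPM in stimulated cells, with no overlap and an adjusted p of 0.054.

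In SPEED, none of the 10 genes passed with Tregs by edgeR in Input, Pol or SubPol, where 0.587%, 0.282% and 1.15% of all 12428 genes did. At an unadjusted p under 0.05 the counts were 8, 7 and 5 of 10 in those fractions, where 14.4%, 7.99% and 12.8% of all genes passed that mark. DESeq2 called 2 in Input (Nop56, adjusted p = 0.045, and Nop58, 0.038), where it called 2.07% of all genes. Myc had 263, 231, 263 and 231 CPM with Tregs in Input, against 340.4, 338, 318 and 293 CPM in stimulated cells. The groups did not overlap, and the log2 fold change of -0.38 ± 0.14 did not pass (SE, n = 4 each; adjusted p = 0.20; 95% interval -0.67 to -0.10). When only the libraries of these groups were fitted, Myc (-0.39, adjusted p = 0.038) and Nop56 (-0.40, 0.034) passed, with 1.57% of all genes called. In the fit of all groups Npm1 had -0.43 (adjusted p = 0.27) and Nop56 -0.39 (0.13), beside -0.38 for Myc. Of the 10 genes, 9 had a negative log2 fold change with Tregs in each SPEED fraction, and Max had a positive one (0.30 in Input, adjusted p = 0.43). The change with Tregs in Input did not differ detectably between assays for any of the 10 (adjusted p at least 0.46, where 0.142% of genes passed); the difference for Myc, RiboTag minus SPEED, was -0.20 with a 95% interval of -0.58 to 0.17. For Max, the 1 gene of the 10 at an unadjusted p under 0.05 (6.37% of all genes), it was -0.68 (interval -1.17 to -0.20, unadjusted p = 0.0075, adjusted p = 0.46).

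The third question was whether these RNAs stood differently between fractions, relative to the bulk of genes. TMM scaling sets the fractions against each other by that bulk. A shift onto or off ribosomes shared by most RNAs would therefore not show in the ratios of IP to Input or Pol to SubPol. After the IL7 rest, Max was lower in IP than in Input (log2 -0.86 ± 0.18 SE, adjusted p = 0.0032, edgeR; 6.89% of all genes called, 3.35% higher and 3.54% lower), with 51.0, 43.9, 54.6, 48.3 and 65.6 CPM in IP, against 76.6, 92.1, 91.4, 104 and 114 CPM in Input. Odc1 was also lower in IP (-0.47, adjusted p = 0.043) and Bop1 higher (0.45, adjusted p = 0.034). Odc1 lost its call without mouse 2, 3, 4 or 5 (adjusted p = 0.099 to 0.23), with no filter on low counts (0.073), with mice 3 to 5 alone (0.056) and with only these groups fitted (0.16). Bop1 lost its call without mouse 2, 3, 4 or 5 (0.10 to 0.18) and with only these groups fitted (0.16). Max kept its call in all 12 alternative fits. With mouse as a block, Npm1 was lower in IP too (-0.36, adjusted p = 0.029; 0.059 without the block). With culture as a block, so that IP and Input of one culture were compared directly, 6 of 10 genes passed at rest where 17.9% of all genes did: Max, Odc1, Npm1 (-0.36, adjusted p = 0.0046), Bop1, Nolc1 (0.37, 0.0027) and Myc (0.22, 0.017). In stimulated cells and with Tregs, none of the 10 passed (0.977% and 1.85% of all genes called; 0 and 2 at an unadjusted p under 0.05, where 13.6% and 16.8% of all genes passed that mark; none by DESeq2). With culture as a block, Nop58 was higher in IP with Tregs (0.25, adjusted p = 0.013; 11.2% of all genes called). The change of the IP-over-Input ratio passed for none of the 10 on stimulation (0.0279% of all genes called) or with Tregs (0%). At an unadjusted p under 0.05 it was 2 on stimulation and 0 with Tregs (5.62% and 1.16% of all genes), and DESeq2 called none. On stimulation Max had the largest value (1.00 ± 0.25 SE, higher in 5 of 5 mice, adjusted p = 0.41), which passed with culture as a block (adjusted p = 0.049). With Tregs, Myc had a change of ratio of -0.01 with a 95% interval of -0.30 to 0.29, so its fall in IP and its fall in Input were of like size.

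In stimulated SPEED cells, 6 of 10 were higher in Pol than in SubPol (Ncl, Fbl, Nop56, Nop58, Nolc1 and Bop1) and Max was lower, where 45.4% of all genes were called (23.6% higher and 21.8% lower). Nolc1 had 496, 469.6, 438 and 434 CPM in Pol, against 177, 181, 222 and 131 CPM in SubPol (log2 1.36 ± 0.11 SE, adjusted p = 2.6e-12, edgeR). Bop1 had 471, 432, 349.9 and 430.0 CPM in Pol, against 207, 167, 191 and 135 CPM in SubPol (1.26 ± 0.11, adjusted p = 1.7e-11). In both genes every Pol library lay above every SubPol library. Max had 114, 159, 173 and 94.9 CPM in Pol, against 181, 219, 269 and 239 CPM in SubPol, the opposite placement with no overlap (-0.73 ± 0.17, adjusted p = 0.00067). Myc did not pass in stimulated cells (0.33, adjusted p = 0.057) and passed with mouse as a block (adjusted p = 0.028), with culture as a block (0.0039) and without mouse 2 (0.37, 0.018). Odc1 was lower with only these groups fitted (-0.28, adjusted p = 0.046). The call of Nop56 was lost without mouse 1 or mouse 4 (adjusted p = 0.062 and 0.075). With Tregs, the same 6 and Myc were higher in Pol and Max lower (44.2% of all genes called, 22.6% higher and 21.6% lower). The call of Myc there was lost without mouse 1 or mouse 4 (adjusted p = 0.066 and 0.090). That of Nop56 was lost without mouse 1 or mouse 4 (0.053 and 0.25) and with only these groups fitted (0.075). That of Max was lost without any one of the 4 mice (0.052 to 0.099) and with no filter on low counts (0.11).

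In untreated cells, 3 of 10 were higher in Pol (Nop58, Nolc1 and Bop1) and 3 lower (Max, Odc1 and Npm1), where 39.7% of all genes were called (21.9% higher and 17.8% lower). Nop58 lost its call without mouse 1 (adjusted p = 0.057) and Npm1 without mouse 2 (0.054), while Myc passed with culture as a block (0.27, adjusted p = 0.036). In the fit without a block, the Pol-over-SubPol ratio changed on stimulation for Ncl alone of the 10 (2.60% of all genes called, 1.56% higher). Ncl had 1081, 1058, 856 and 1397 CPM in Pol of stimulated cells, against 552, 561, 556 and 598 CPM in Pol of untreated cells. In SubPol it had 610.0, 594, 639 and 631 CPM in stimulated cells, against 579, 591, 642 and 593 CPM in untreated cells. So its Pol libraries separated with no overlap while its SubPol libraries overlapped, and the change of ratio was 0.91 ± 0.17 (SE, log2; higher in 4 of 4 mice; adjusted p = 0.0028). It narrowly missed the threshold without mouse 1 (0.95, adjusted p = 0.052). With mouse as a block, Npm1 passed too (0.75, adjusted p = 0.034; 0.77 and 0.088 without the block), where 4.47% of all genes did. With culture as a block, so that Pol and SubPol of one culture were compared directly, Ncl, Npm1 (adjusted p = 0.031) and Nop58 (0.39, 0.046) passed, where 5.71% of all genes did. DESeq2 called Npm1 beside Ncl (0.035; 5.36% of all genes called). All 10 genes had a positive change of ratio on stimulation, where 46.2% of all genes did, with a median of 0.37. With Tregs the ratio changed for none of the 10 and for 0% of all genes (no gene of the 10 at an unadjusted p under 0.05, where 2.64% of all genes passed that mark, and none by DESeq2); for Myc the change was 0.07 with a 95% interval of -0.34 to 0.47.

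The last question was how the fractions stood under HHT. After 10 min of HHT, the Pol-over-SubPol ratio was lower than in stimulated cells for Nolc1 (log2 -1.21 ± 0.17 SE, adjusted p = 2.3e-06, edgeR), Bop1 (-1.20 ± 0.17, 3.1e-06), Nop58 (-0.70 ± 0.15, 0.00042) and Fbl (-0.95 ± 0.32, 0.026). Of all genes, 23.0% were called and 12.7% were lower, beside these 4 of 10. The ratio of Nolc1, Bop1 and Nop58 was lower in all 3 mice and passed in all 13 alternative fits, while Fbl lost its call without mouse 1, 2 or 3 (adjusted p = 0.075 to 0.15) and with no filter on low counts (0.14). With mouse as a block, Nop56 (-0.44, adjusted p = 0.048) and Odc1 (0.55, adjusted p = 0.039, the ratio higher with HHT) passed as well (25.4% of all genes called). Odc1 also passed by DESeq2 (0.034), with DESeq2's size factors (0.048), with only these groups fitted (0.048) and with culture as a block (0.020), and Nop56 with culture as a block (0.049). Myc, Max, Ncl and Npm1 did not pass, with 0.27 (95% interval -0.16 to 0.71) for Myc and -0.01 (-0.57 to 0.54) for Npm1.

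The lower ratio of Nolc1 went with a higher SubPol level. In SubPol, Nolc1 had 461, 438 and 407 CPM with HHT in mice 1 to 3, against 177, 181, 222 and 131 CPM in stimulated cells of mice 1 to 4. In Pol it had 487, 523 and 439 CPM with HHT, against 496, 469.6, 438 and 434 CPM in stimulated cells. The SubPol libraries were far apart and the Pol libraries overlapped. Bop1 showed less of a one-sided pattern: 342, 310.2 and 282 CPM with HHT in SubPol, against 207, 167, 191 and 135 CPM in stimulated cells, and 345, 338 and 286 CPM with HHT in Pol, against 471, 432, 349.9 and 430.0 CPM. Both pairs of groups lay apart, in opposite directions. Within a fraction these levels are shares of that fraction's RNA, and the fractions were not tested one by one for HHT. Under HHT, Pol over SubPol passed for Myc (0.60, adjusted p = 0.019) and Ncl (0.51, adjusted p = 0.021), where 6.75% of all genes were called and 4.51% were higher; Myc lost this call without mouse 1 or mouse 3 (adjusted p = 0.26 and 0.14) and with only these groups fitted (0.052), and Ncl without mouse 1 or mouse 2 (0.19 and 0.33) and with only these groups fitted (0.14). In that last fit Max was lower in Pol (-0.43, adjusted p = 0.043). Total RNA of the 10 genes did not change detectably in those 10 min: none passed in Input with HHT over stimulated cells (0.105% of all genes called; none at an unadjusted p under 0.05, where 8.25% of all genes passed that mark; none by DESeq2), with 2 HHT libraries and intervals between -0.87 and 0.61 over the 10 genes.

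**Figure D4:**
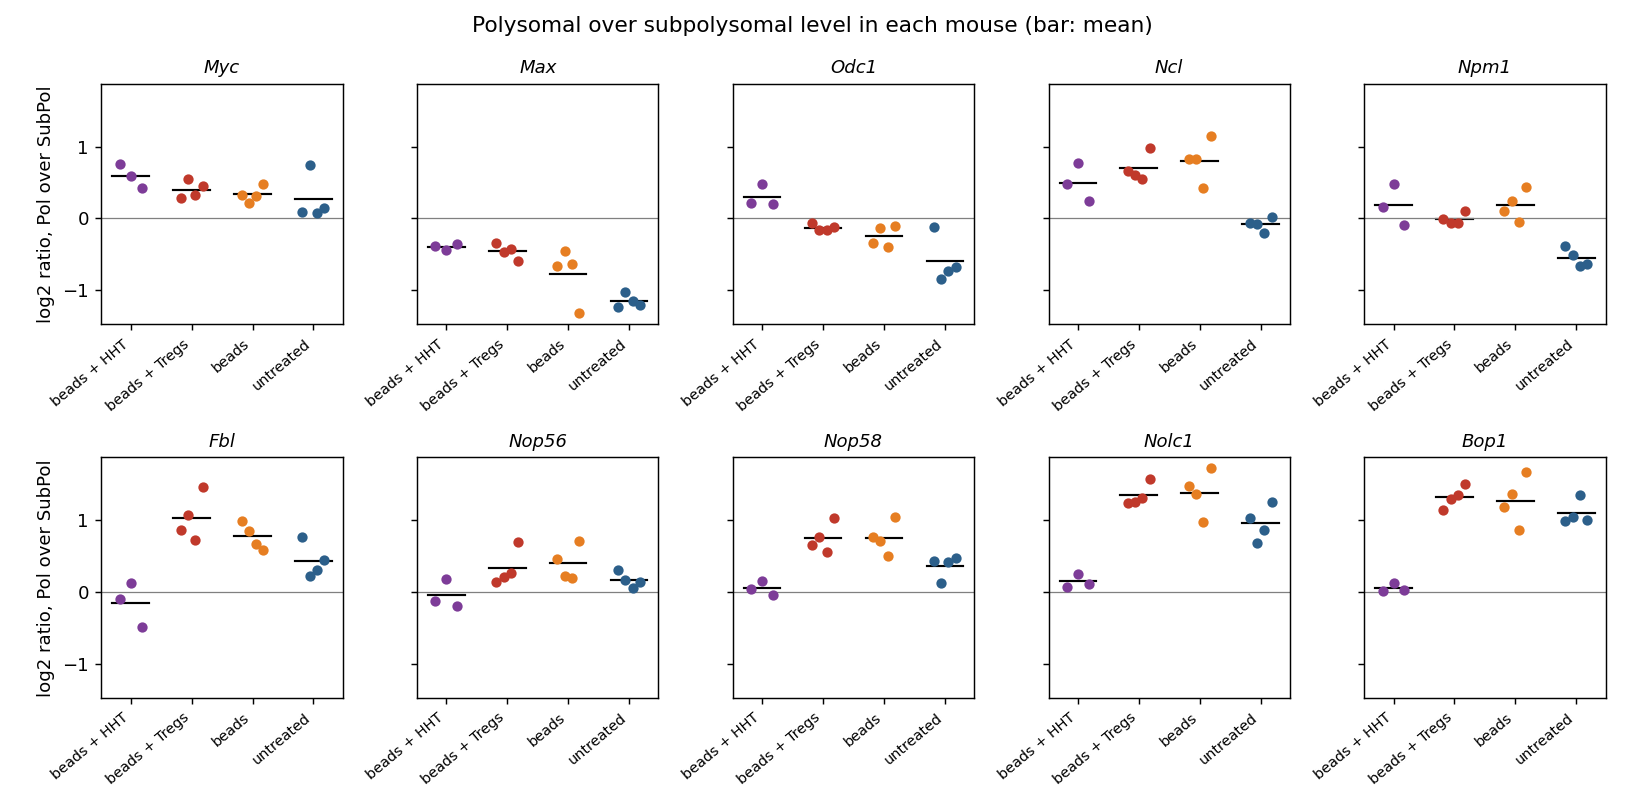
Polysomal over subpolysomal level of each gene in each SPEED culture, as a log2 ratio on the vertical axis, for HHT (3 mice), Tregs, stimulated and untreated cells (4 mice each); bars are means. Nolc1, Bop1, Nop58 and Fbl fall to near 0 with HHT, Max lies below 0 in every culture, and Ncl and Npm1 lie higher in stimulated than in untreated cells.

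Taken as one sum, the 10 genes took 0.265 ± 0.0166% of all counts in RiboTag Input with Tregs, 0.328 ± 0.0266% in stimulated cells and 0.188 ± 0.0124% at rest (SD, n = 5 each). In SPEED Input the shares were 0.301 ± 0.0011% with HHT (n = 2), 0.273 ± 0.0121% with Tregs, 0.332 ± 0.0221% in stimulated and 0.200 ± 0.00706% in untreated cells (n = 4 each). In Input of both assays the mean share was highest in stimulated cells. In SPEED Pol it was 0.373 ± 0.0518% with HHT (n = 3), 0.312 ± 0.0197% with Tregs, 0.359 ± 0.0246% in stimulated and 0.199 ± 0.00353% in untreated cells (n = 4 each). In SubPol it was 0.337 ± 0.0177% with HHT (n = 3), 0.239 ± 0.0118% with Tregs, 0.272 ± 0.0105% in stimulated and 0.203 ± 0.0106% in untreated cells (n = 4 each), so that HHT cells held the highest mean share in both fractions. This sum is weighted by the most counted genes, Ncl above all, and carries no test.

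The genes whose levels ran most like those of Myc, and most like the mean of the 7 nucleolar genes, were looked up across libraries. The likeness of a gene to Myc, or to the mean of the 7, was taken as the lower of its Pearson r over the 30 RiboTag and the 44 SPEED libraries; libraries of a mouse share its cells and the libraries span all groups, so these values are a description. Among 10690 genes, the 5 nearest to Myc had values of 0.638 to 0.676, led by ENSMUSG00000025137 (0.676) and ENSMUSG00000023832 (0.651). Bop1 came 88th (0.442), Nop56 155th and Nolc1 177th (0.389). Among the other 9 of the 10 genes, Npm1 was the least like Myc, at 4184th (r = -0.0885 in RiboTag and 0.563 in SPEED). The median likeness to Myc over all genes was -0.188. The 5 genes nearest to the nucleolar mean had 0.950 to 0.968, led by ENSMUSG00000022407 (0.968) and ENSMUSG00000030079 (0.961), while Myc came 2953rd, with r = 0.265 in RiboTag and 0.744 in SPEED. Odc1 followed the nucleolar mean in RiboTag (r = 0.904) and not in SPEED (r = 0.0789). With group means taken out, the median r over the 45 pairs of the 10 genes was 0.258 in RiboTag and 0.207 in SPEED, and between Myc and the other 9 it was 0.409 and 0.206, against 0.0037 and -0.0123 between Myc and all genes. Among the 7 nucleolar genes it was 0.298 and 0.304. No median over pairs of all genes was computed, so the medians over the 45 pairs and over the nucleolar pairs have no background beside them. Pairs differed widely: in RiboTag, Myc had 0.819 with Bop1 and 0.769 with Nolc1, whereas Npm1 and Bop1 had -0.486. Myc also had negative values there with Npm1 (-0.424), Fbl (-0.302) and Max (-0.291). For stimulated over rested RiboTag Input, the log2 difference of Myc was -0.18 and -0.04 in mice 1 and 2. It was 0.47 to 0.64 in mice 3 to 5. That of Nolc1 was 0.51 and 0.71, against 1.465 to 1.56. That of Bop1 was 0.39 and 0.50, against 1.04 to 1.59. That of Npm1 ran the other way, at 1.035 and 0.62, against 0.06 to 0.42. How far the RiboTag r values follow this split of mice was not tested. In SPEED, Myc had 0.313 with Bop1 and 0.331 with Nolc1, and its only negative value was with Odc1 (-0.142). The files give no names for the other identifiers, and none is given here.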

How the data were processed

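Gene counts of 30 RiboTag and 45 SPEED libraries (SMART-Seq v4 and Nextera XT, per the labels' protocols) were used as deposited by the authors: whole-number raw counts per Ensembl gene identifier. The submitters' processing notes name GRCm38, HTSeq 0.4.1, Picard 1.134, SAMtools 1.2 and FastQC 0.11.3; the sources used here name no aligner and no strand setting. A further 16 RiboTag columns matched no sample and were not used. Of 2 HHT Input libraries that carry one title, the earlier was kept, which leaves 44 SPEED libraries.

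Groups came from the sample titles, and mice from the titles and the mouse identifier that the labels give each sample. All groups of an assay were fitted together with edgeR 4.0.16 in R 4.3.3 (TMM, filterByExpr with a minimum count of 10 and a minimum total of 15, robust quasi-likelihood F test, two-sided), which tested 10751 genes in RiboTag and 12428 in SPEED. The main fit had no term for mouse or culture, so it treated libraries of one mouse, and fractions of one culture, as independent. Fits with mouse or culture as a block were run as alternatives. Ratios between fractions and their changes were contrasts of the same fit, and 27 Input libraries (all but those with HHT) were fitted jointly to set the assays side by side. Log2 CPM used a prior count of 2. The 25 comparisons each have their own adjustment over all genes tested. The total counts per library are in the report's opening. Groups had 2 to 5 mice, and how far depth or the spread between mice set the intervals was not tested. The fit was checked on simulated data.

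The mouse number pairs samples, since the labels give libraries of one number the same mouse identifier. Deviations from group means of such libraries correlated at 0.180 on average in RiboTag (-0.0711 to 0.495) and 0.0707 in SPEED (-0.222 to 0.454). Between mice the averages were -0.0447 and -0.0234. Taking out group means largely fixes these 2 values once those within a mouse are given, so they are no separate evidence of pairing. Pairs of one mouse include fractions of one culture, so shared mouse and shared culture cannot be told apart in these averages. No 2 of 123 library pairs within groups were copies of each other, the lowest chi-square per degree of freedom being 1.79.

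The members and lists were chosen with earlier results of these data known. The named genes are all 10 members and the genes nearest to Myc and to the nucleolar mean. Lists of other ribosome biogenesis genes and cell type markers were set down by symbol, but the tables at hand do not link symbols to the identifiers in the files, so those lists, and the markers of Tregs and other cells, are not analysed here and the labelled cell type was not checked. Promoter sequences are RefSeq's, on GRCm38.p6. Alternatives were mouse or culture as a block, DESeq2 1.42.0 and its size factors, no filter, only the groups compared, each mouse left out, the HHT library choice, and fits without the libraries that stood apart in earlier results (the untreated SubPol library of mouse 3, and RiboTag mice 1 and 2).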

Additional observations from a re-analysis of the deposited data

Results flagged for a closer look

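Within groups of 4 or 5 mice, 1 library stood away from the others by Dixon's test in 7 of 150 sets of a gene and a group, and chance gives about 1 in 20. Myc in SPEED Input of untreated cells was 145.9 CPM in mouse 2, against 88.3 to 95.2 CPM in the other 3 mice. In the same group, Nop56 was 184.3 CPM in mouse 2 (others 200.6 to 204.1 CPM), Nop58 was 247.7 CPM in mouse 1 (others 205.4 to 211.6 CPM) and Nolc1 was 277.3 CPM in mouse 1 (others 241.0 to 245.0 CPM). Max in SPEED Pol with Tregs was 145.1 CPM in mouse 4, below 184.6 to 191.2 CPM in the others. Nolc1 in RiboTag IP with Tregs was 224.4 CPM in mouse 1 (others 265.2 to 282.3 CPM), and Bop1 in RiboTag IP at rest was 227.9 CPM in mouse 2 (others 177.4 to 190.6 CPM).

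The change of Input on stimulation differed between RiboTag and SPEED for Myc (log2 difference -1.32, adjusted p = 8.4e-06, edgeR) and Odc1 (1.35, adjusted p = 5.3e-07). The controls, strains and assays differ together and cannot be told apart.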

How the results depend on the processing

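No called result changed sign under any alternative that was run. The number of the 10 genes called moved by over 1.5 times as follows, and smaller moves of 1 or 2 genes occurred in other comparisons. Where given, a percentage in brackets is the share of all genes tested that the same fit called. For Tregs over stimulated cells in RiboTag Input the number of the 10 genes called was 2 (4.53%). It was 4 with mouse as a replicate block (7.84%), 4 by DESeq2 (6.32%) and 4 with only the groups compared (9.28%). It was 1 with no filter on low counts and 1 to 2 when each mouse was left out. In RiboTag IP it was 1 (5.69%), and 4 with the replicate block (10.0%), 4 by DESeq2 (8.62%) and 2 with only the groups compared (5.11%). It was 4 with mice 3 to 5 alone and 1 to 2 with a mouse left out. In SPEED Input with Tregs it was 0 (0.587%), and 2 by DESeq2 (2.07%) and 2 with only the groups compared (1.57%). For IP over Input at rest it was 3 (6.89%), and 1 with only the groups compared (1.86%), 6 with culture as a block (17.9%) and 1 to 5 with a mouse left out. With Tregs, culture as a block gave 1 (11.2%) where the count was 0 (1.85%). For the change on stimulation, culture as a block gave 1 (0.177%) where the count was 0 (0.0279%). For Pol over SubPol with Tregs it was 8 (44.2%), and 5 to 7 with a mouse left out. With HHT it was 2 (6.75%), and 1 with only the groups compared (6.57%) and 0 to 2 with a mouse left out. For the change of this ratio on stimulation it was 1 (2.60%), and 2 with the replicate block (4.47%), 2 by DESeq2 (5.36%) and 3 with culture as a block (5.71%). With a mouse left out it was 0 to 1. For the difference between assays in the change of Input on stimulation it was 2 (17.8%), and 2 to 4 with a mouse left out. Over all genes, counts that moved by over 1.5 times were these. With Tregs, RiboTag Input had 487 calls (843 with the block, 948 with only the groups compared, down to 192 with a mouse left out), RiboTag IP 612 (1077 with the block, 927 by DESeq2, 399 with no filter, down to 221), SPEED Input 73 (149, 257 and 47 with the block, DESeq2 and no filter, 166 with only the groups compared, 6 to 41 with a mouse left out), SPEED Pol 35 (72 with the block, 78 by DESeq2, 3 to 20) and SPEED SubPol 143 (245 with the block, 331 by DESeq2, 27 with only the groups compared, 19 to 80). IP over Input had 741 calls at rest (1116 with the block, 179 with only the groups compared, 1922 with culture as a block, 1154 with mice 3 to 5, down to 253), 105 in stimulated cells (250 with the block, 216 by DESeq2, 849 with culture, down to 35) and 199 with Tregs (431 with the block, 394 by DESeq2, 125 with no filter, 1207 with culture, 105 with mice 3 to 5, 42 to 102); its change on stimulation had 3 (5 by DESeq2, 19 with culture, 9 with mice 3 to 5, down to 0). HHT in Input had 13 (35 by DESeq2, 32 with both libraries of one title, down to 2), Pol over SubPol with HHT 839 (421 with no filter, down to 139), its change on stimulation 323 (556 with the block, 666 by DESeq2, 176 with no filter, 115 with only the groups compared, 710 with culture, 62 to 168) and its change with HHT 2860 (down to 1664). The difference between assays with Tregs had 16 (27 with the block, 50 by DESeq2, down to 5). The cause of these shifts was not tested. Of single-gene values, 41 gained a call and 12 lost one in settings that kept all mice and libraries, 8 gained and 1 lost one with mice 3 to 5 alone or without the untreated SubPol library of mouse 3, and 9 gained and 41 lost one with 1 mouse left out. Leaving out the untreated SubPol library of mouse 3 changed 1 call among the 10 genes, that of Fbl in SubPol on stimulation (0.56, adjusted p = 0.041), and the choice of HHT Input library changed none. The replicate block changed no call beyond those given here, beside the results, and for Npm1 in IP over Input at rest (-0.36, adjusted p = 0.029) and Myc in Pol over SubPol of stimulated cells (0.33, adjusted p = 0.028). Fbl was the most thinly counted of the 10 genes, at 19 to 139 counts a library.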
